A study of Mus musculus with 112 samples.

Results

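The food allotment under calorie restriction (CR) was lowered further in some strains of mice than in others, and the cerebral cortex response to CR was compared between these feeding arms. In 129S1/SvImJ and C57BL6/J mice, the CR allotment was lowered further partway through. This feeding schedule comes from the published methods and not from the sample labels. Those methods say that food for some strains was set from body weight changes seen earlier under CR, so strains were not assigned to arms at random. In DBA/2J, B6C3F1/J, CBA/J and C3H/HeJ mice, the CR allotment stayed the same from start to end. The CR effect was the mean log2 signal of CR mice minus that of control mice of the same strain. For each gene, the mean CR effect of the 4 single-allotment strains was subtracted from that of the 2 lowered-food strains. Balbc/J mice, which were given more food on both diets, were in neither arm.

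All mice were males from a commercial breeder that came at 6 weeks of age and lived 1 to a cage, on a purified control diet of 84 kcal per week for the first 2 weeks. From 8 weeks of age they stayed on control food or were given the CR diet, and tissue was taken at 22 weeks after an overnight fast. The 6 strains gave 94 of the 112 arrays of the series, with 1 mouse per array. Of these, 31 belonged to the lowered-food arm and 63 to the single-allotment arm. Each strain and diet group held 8 mice, except for the control groups of C57BL6/J and B6C3F1/J, which held 7 each because 1 control array in each strain was left out. In those 2 arrays, the median of 14 cerebellar marker genes stood 4.06 and 4.08 log2 units above the rest of their group. B6C3F1/J is a hybrid of C57BL6/J and C3H/HeJ, so the arms are not genetically unrelated. Depth of restriction and strain cannot be told apart here, since no strain was fed both ways, and every p-value speaks of these strains.

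Calorie restriction lowers energy intake without malnutrition and extends lifespan in many mouse strains. In the brain, restricted feeding is known to touch the circadian clock, a feedback loop in which BMAL1 (encoded by Arntl) and CLOCK drive the Per and Cry genes, whose proteins repress them in turn. The loop also drives output genes such as Dbp and Tef, and Nr1d1 and Nr1d2, whose products repress Arntl. Restriction also raises circulating glucocorticoids, hormones that induce Tsc22d3 and Sgk1 in many cell types.

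The arrays carried the markers of cortex. Slc17a7, the vesicular glutamate transporter of cortical excitatory neurons, lay between 11.5 and 12.4 log2 units in the 94 arrays, and Tbr1, a transcription factor of deep cortical neurons, between 9.23 and 10.3, against a median of 7.53 over all genes. Markers of neighbouring tissue varied far more. Drd2, a dopamine receptor of the striatum, ranged from 7.71 to 11.4, and Ttr, the transthyretin gene of the choroid plexus, from 7.54 to 13.4. Gabra6, a receptor subunit of cerebellar granule cells, ranged from 5.11 to 8.98 even without the arrays left out. Array medians lay between 7.14 and 7.26, and 0 pairs of arrays held identical values.

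No gene differed between the arms past the threshold. Of 19938 genes tested, 0 (0%) had a limma adjusted p under 0.05, and the smallest adjusted p was 0.136, shared by 9 genes. At an unadjusted p under 0.05 there were 964 genes (4.83%), of which 380 (1.91%) had a higher and 584 (2.93%) a lower CR effect in the lowered-food arm. With no difference between arms, a share equal to the threshold is expected, and 4.83% lay below it. The CR effects of both lowered-food strains lay above those of all 4 single-allotment strains for 955 genes (4.79%) and below them for 1109 genes (5.56%). Such orders also arise with no difference between arms, so these counts are no support for one. The 95% interval of the difference stayed within a 1.2-fold change for 18414 genes, or 92.4%, and the median interval ran 0.11 log2 units to either side of the estimate. The other 1524 genes had intervals that reached beyond it, so a larger difference was not detectable or not bounded for them. Of 24 alternative settings, 18 also called 0 genes. The other 6 called between 2 and 7, and with Balbc/J counted as a single-allotment strain the 7 were C3ar1, Ciart, Cldn5, Dbp, Sorcs3, Tef and Tm6sf2. With strain as the unit, where the error comes from the variation between strains of an arm, the smallest limma adjusted p was 0.916.

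The genes with the smallest p among those whose arms did not overlap are described next, 12 in each direction, as uncalled values. Their differences ran from 0.12 to 0.42 log2 units in the higher group and from -0.14 to -0.36 in the lower group, with adjusted p between 0.136 and 0.638. The arms had opposite signs for 10 of the 12 higher and 11 of the 12 lower genes. Since non-overlap was part of the choice, this is a description of those genes and no support for a difference.

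**Figure D1:**
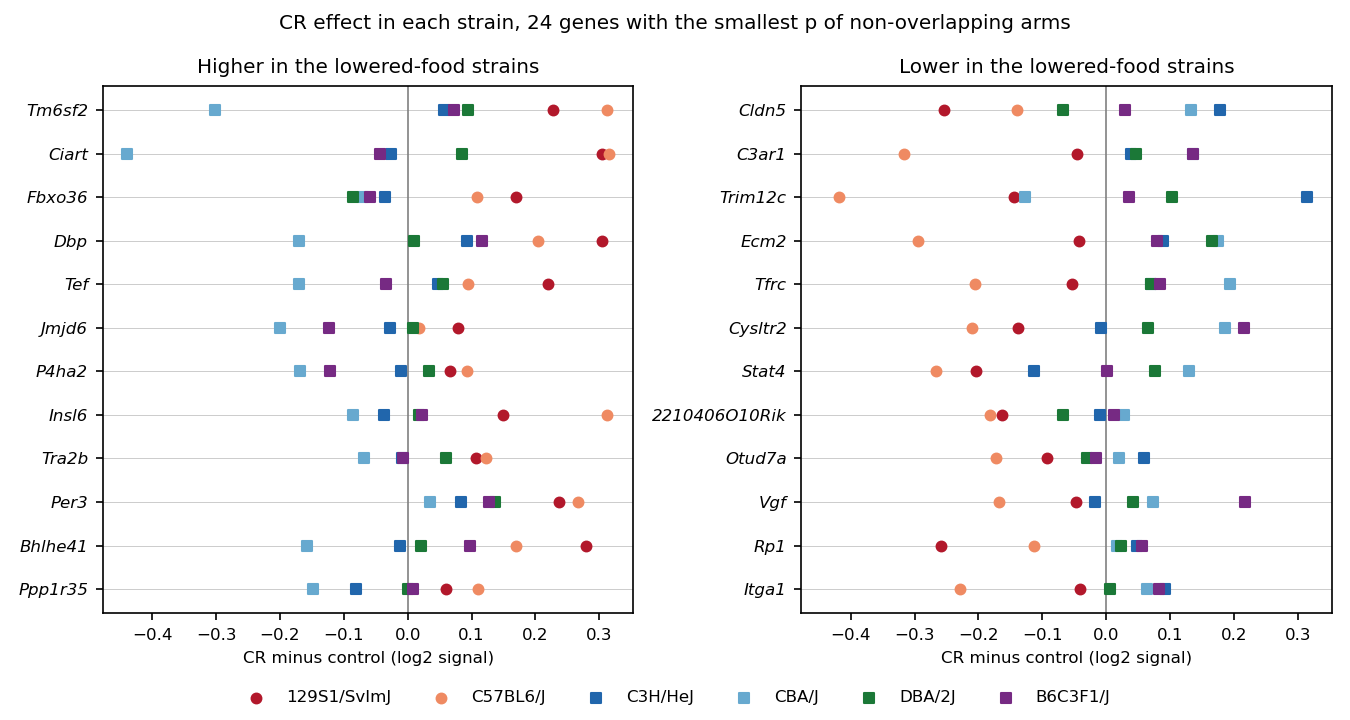
CR effect (CR minus control, log2 signal, x axis) in each of 6 strains for the 12 genes with higher (left) and the 12 with lower (right) values in the lowered-food strains. Circles are the lowered-food strains and squares the single-allotment strains, each point being a difference of 2 group means of 7 or 8 mice. CBA/J lies farthest to the left for most genes on the left, at -0.44 for Ciart, while the lowered-food strains lie at 0.30 and 0.32.

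Among the 12 higher genes, 5 belong to the circadian clock. Ciart, a repressor of the BMAL1 and CLOCK complex, had the largest difference of the 12, 0.42 ± 0.09 (SE) log2 units, with a 95% interval of 0.23 to 0.60 and an adjusted p of 0.136. In 129S1/SvImJ, Ciart signal ran from 8.97 through a median of 9.34 to 9.52 in 8 control mice, and from 9.42 through 9.53 to 9.83 in 8 CR mice. In C57BL6/J it ran from 8.66 through 9.05 to 9.33 in 7 control mice and from 9.06 through 9.30 to 9.80 in 8 CR mice. CR mice were the higher group in both strains, and the groups overlapped in both.

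In the single-allotment strains, the medians of Ciart in control and CR mice were 9.34 and 9.37 in C3H/HeJ, 9.27 and 9.36 in DBA/2J, and 9.35 and 9.30 in B6C3F1/J. CBA/J stood apart from these. Its control mice ran from 9.53 through 9.77 to 9.87 and its CR mice from 9.09 through 9.30 to 9.68, a CR effect of -0.44 ± 0.11 (SE) that passed the test within that strain (limma adjusted p = 0.0453). The difference between arms was 0.30 without CBA/J, where its adjusted p was 1. It was 0.47 with the mean levels of 5 region and cell type lists held constant, a setting chosen after the data were seen, under which its adjusted p was 0.0205. Over all settings run, its adjusted p ran from 0.00321 to 1.

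Dbp encodes a transcription factor that binds D-box sequences and is one of the most strongly cycling clock outputs. Its signal in 129S1/SvImJ ran from 9.56 through 9.75 to 9.85 in control mice and from 9.86 through 10 to 10.2 in CR mice, so that the groups did not overlap. In C57BL6/J the control mice ran from 9.06 through 9.31 to 9.51 and the CR mice from 9.37 through 9.54 to 9.60, with some overlap. Medians in control and CR mice were 9.87 and 9.92 in C3H/HeJ, 9.94 and 9.74 in CBA/J, 9.62 and 9.72 in DBA/2J, and 9.75 and 9.83 in B6C3F1/J. CBA/J was again the strain with the lower CR mice. The difference between arms was 0.24 ± 0.06 (SE), with a 95% interval of 0.13 to 0.35 and an adjusted p of 0.136.

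**Figure D2:**
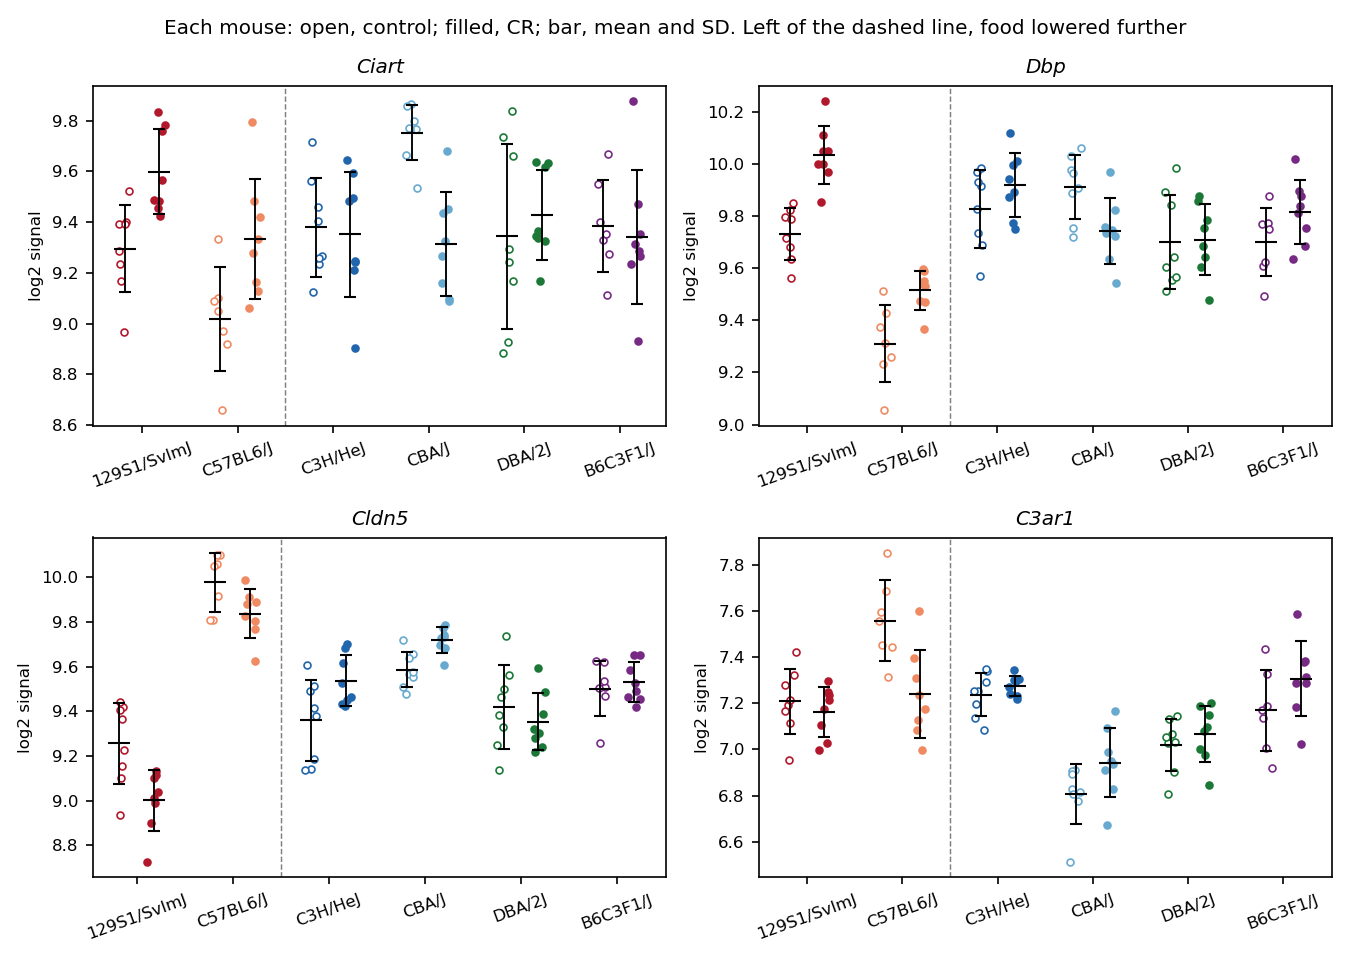
Log2 signal (y axis) of Ciart, Dbp, Cldn5 and C3ar1 in each mouse of 6 strains (x axis), with control mice as open and CR mice as filled points and bars for the mean and SD of each group. Strains left of the dashed line had their food lowered further. Ciart and Dbp were higher in CR than in control mice of both those strains and lower in CR mice of CBA/J, while Cldn5 and C3ar1 show the opposite order of means in the same strains.

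Tef, a close relative of Dbp, had a difference of 0.18 ± 0.04, Per3, a Period protein of the repressing loop, one of 0.16 ± 0.04, and Bhlhe41, a repressor also called DEC2, one of 0.24 ± 0.07 (SE, log2 units). Their adjusted p were 0.136, 0.638 and 0.638. For Tef, the 129S1/SvImJ control mice ran from 9.27 to 9.59 and the CR mice from 9.59 to 9.78. Per3 was the only one of the 5 whose CR effect was positive in all 6 strains, from 0.03 in CBA/J to 0.27 in C57BL6/J.

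Promoters of 4 genes are shown because their motif letters bear on the clock and stress groups described here. Each is the 250 bases before the RefSeq transcription start on build GRCm38.p6, written 5′ to 3′ along the gene. Capitals mark exact matches, on either strand, to an E-box (CACGTG, the BMAL1 and CLOCK motif) in Ciart and Cry1, a D-box (TTATGTAA, the Dbp and Tef motif) in Per3, and the endoplasmic reticulum (ER) stress element in Hspa5.
Ciart (chr3:95882229-95882478, minus strand): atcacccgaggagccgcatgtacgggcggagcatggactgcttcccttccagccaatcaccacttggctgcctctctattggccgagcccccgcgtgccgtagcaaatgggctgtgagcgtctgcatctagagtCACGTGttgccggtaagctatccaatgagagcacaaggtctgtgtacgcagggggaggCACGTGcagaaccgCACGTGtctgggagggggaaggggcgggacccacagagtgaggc
Per3 (chr4:151044666-151044915, minus strand): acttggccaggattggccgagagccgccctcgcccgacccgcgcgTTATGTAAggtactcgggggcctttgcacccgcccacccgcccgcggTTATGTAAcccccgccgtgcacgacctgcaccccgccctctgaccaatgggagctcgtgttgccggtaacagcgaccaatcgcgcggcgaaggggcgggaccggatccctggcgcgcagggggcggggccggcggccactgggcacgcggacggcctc
Cry1 (chr10:85185055-85185304, minus strand): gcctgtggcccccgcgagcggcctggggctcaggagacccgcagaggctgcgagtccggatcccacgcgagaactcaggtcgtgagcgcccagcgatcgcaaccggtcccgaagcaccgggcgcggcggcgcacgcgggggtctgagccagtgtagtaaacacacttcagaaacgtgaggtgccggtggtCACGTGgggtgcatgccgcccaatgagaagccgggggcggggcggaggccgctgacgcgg
Hspa5 (chr2:34771840-34772089, plus strand): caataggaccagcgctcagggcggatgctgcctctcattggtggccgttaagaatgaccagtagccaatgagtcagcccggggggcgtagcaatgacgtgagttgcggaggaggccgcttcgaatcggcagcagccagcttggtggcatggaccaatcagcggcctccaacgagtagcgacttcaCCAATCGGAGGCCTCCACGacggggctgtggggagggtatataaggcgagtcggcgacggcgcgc
Ciart held 3 E-boxes, at 116, 58 and 44 bases before the start, and Per3 held 2 D-boxes. Of 32851 windows of this length, 6.02% held an E-box, 0.819% a D-box and 0.113% the ER stress element. An E-box also lay before the starts of Tef and Bhlhe41, while Dbp and Nr1d1 held neither E-box nor D-box in this window. These are matches of letters and not measured binding sites.

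Over the whole circadian list, the difference between arms was positive for 13 of 18 measured genes, against 49.4% of all genes. The median was 0.0864 log2 units, against -0.000718 over all genes. None of the 18 passed the threshold, 8 had an unadjusted p under 0.05 in the higher direction, against 1.91% of all genes, and 1, Arntl, in the lower direction, against 2.93%. Arntl had a difference of -0.14 and a CR effect of -0.21 in the lowered-food arm (adjusted p = 0.00135). Within the lowered-food arm alone, 7 clock genes rose (Per2, Ciart, Per3, Dbp, Bhlhe41, Cry1 and Tef) and 2 fell (Arntl and Nr1d1), where 0.522% of all genes were called in either direction. In the single-allotment arm, with 0.376% of all genes called, Per2 and Cry1 rose and Nr1d1 fell, and these 3 passed the test in both arms in the same direction. The median of the list within strains was 0.0776 in 129S1/SvImJ and 0.0872 in C57BL6/J, and 0.0673 in DBA/2J and 0.0676 in B6C3F1/J, with CBA/J at -0.0861 and C3H/HeJ at -0.0122. Without CBA/J, the median difference between arms was 0.0211, with 10 of 18 positive. The hour of tissue collection is not given in the sources used here.

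**Figure D3:**
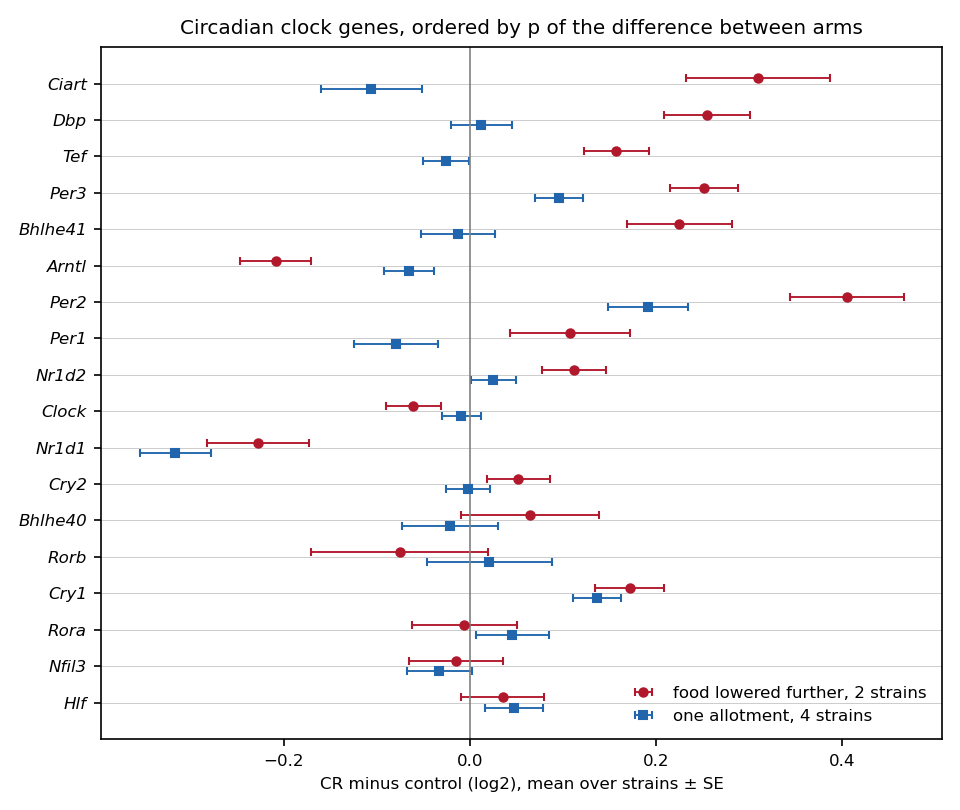
Mean CR effect (CR minus control, log2 signal, x axis) of 18 circadian clock genes in the lowered-food arm (circles, 2 strains) and the single-allotment arm (squares, 4 strains), with bars of 1 SE, ordered from the top by the p of the difference. The arms stand far apart for Ciart (0.31 and -0.11) and close together for Cry1 (0.17 and 0.14).

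Nr1d1, the REV-ERB alpha repressor of Arntl, had the smallest adjusted p of any gene in the single-allotment arm. It fell there by 0.32 on the log2 scale (adjusted p = 2.19e-08) and fell by 0.23 in the lowered-food arm (adjusted p = 0.0269). The CR effect was negative in all 6 strains, from -0.20 in B6C3F1/J to -0.47 in CBA/J. The difference between arms was 0.09 with a 95% interval of -0.04 to 0.22, so the interval reaches up to a difference of 0.22 log2 units. Per2 rose by 0.41 in the lowered-food arm (adjusted p = 2.5e-05) and by 0.19 in the single-allotment arm (adjusted p = 0.0209), a difference of 0.21 with an adjusted p of 0.789. Its CR effect was below 0 in CBA/J alone, at -0.07.

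The other 7 higher genes were on none of the lists. Tm6sf2, a membrane protein of lipoprotein assembly, had a difference of 0.29 ± 0.07 (SE) log2 units (adjusted p = 0.136). In C57BL6/J, Tm6sf2 ran from 6.91 through 7.14 to 7.23 in control mice and from 7.25 through 7.42 to 7.58 in CR mice, without overlap. In 129S1/SvImJ the values were 7.34, 7.51 and 7.71 in control mice and 7.59, 7.74 and 7.89 in CR mice. The medians of control and CR mice were 7.55 and 7.60 in C3H/HeJ, 7.85 and 7.54 in CBA/J, 7.63 and 7.68 in DBA/2J, and 7.55 and 7.64 in B6C3F1/J. As with Ciart, CBA/J alone had clearly lower CR mice (CR effect -0.30, adjusted p = 0.0468), and without that strain the difference was 0.19.

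Fbxo36, an F-box protein, differed by 0.20 ± 0.05 (SE, adjusted p = 0.136), and here CBA/J did not stand apart, since all 4 single-allotment strains had negative CR effects between -0.04 and -0.09. Its control and CR mice ran from 7.97 through 8.26 to 8.40 and from 8.22 through 8.39 to 8.56 in 129S1/SvImJ. In C57BL6/J they ran from 7.76 through 7.95 to 8.09 and from 7.96 through 8.05 to 8.11. The medians in control and CR mice were 8.28 and 8.25 in C3H/HeJ, 8.36 and 8.26 in CBA/J, 8.23 and 8.16 in DBA/2J, and 8.18 and 8.10 in B6C3F1/J. Control and CR mice overlapped in all 6 strains.

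Jmjd6, an oxygenase that acts on splicing factors, had a difference of 0.13, and its change lay in the single-allotment arm, where it fell by 0.09 (adjusted p = 0.0265), and within it in CBA/J, where it fell by 0.20 (adjusted p = 0.00657). Tra2b, a splicing regulator, differed by 0.12 and rose in the lowered-food arm by 0.11 (adjusted p = 0.0372). Insl6, a member of the insulin-like family, differed by 0.25 and also rose in that arm, by 0.23 (adjusted p = 0.0393), from a low signal of 5.49. P4ha2, a collagen prolyl hydroxylase subunit, and Ppp1r35, a protein of centriole assembly, differed by 0.15 and 0.14, and neither passed the test in an arm.

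Among the 12 lower genes, Cldn5, the main claudin of the tight junctions of brain endothelial cells, had the smallest p of all genes. The difference was -0.26 ± 0.06 (SE) log2 units, with a 95% interval of -0.38 to -0.15 and an adjusted p of 0.136. In 129S1/SvImJ, its signal ran from 8.94 through 9.30 to 9.44 in control mice and from 8.73 through 9.03 to 9.13 in CR mice. In C57BL6/J it ran from 9.81 through 10 to 10.1 in control mice and from 9.63 through 9.85 to 9.99 in CR mice. Each pair of groups overlapped, with the CR mice lower.

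Cldn5 medians in control and CR mice were 9.40 and 9.50 in C3H/HeJ, 9.57 and 9.73 in CBA/J, 9.42 and 9.31 in DBA/2J, and 9.51 and 9.51 in B6C3F1/J. C3H/HeJ and CBA/J had higher CR mice, with CR effects of 0.18 and 0.13, and DBA/2J and B6C3F1/J lay on either side of 0. Cldn5 fell in the lowered-food arm by 0.20 (adjusted p = 0.0286), while its CR effect in the single-allotment arm was 0.07. Other endothelial genes had smaller values in the same direction. Of 11 measured endothelial markers, 1 had a positive difference, against 49.4% of all genes, and the median was -0.0576. The median CR effect of the list was -0.0213 in 129S1/SvImJ, -0.0947 in C57BL6/J, 0.0506 in C3H/HeJ, 0.0401 in CBA/J, -0.0668 in DBA/2J and -0.0128 in B6C3F1/J, so that DBA/2J lay below 129S1/SvImJ. Without C57BL6/J, the median difference between arms was -0.0121. In bulk tissue, fewer cells of a type and less RNA per cell cannot be told apart.

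C3ar1, the receptor for the complement fragment C3a, differed by -0.27 ± 0.06 (SE, adjusted p = 0.136), and the CR effect was -0.32 in C57BL6/J and -0.05 in 129S1/SvImJ. Control and CR mice of C57BL6/J ran from 7.31 through 7.56 to 7.85 and from 7.00 through 7.21 to 7.60. In 129S1/SvImJ they ran from 6.96 through 7.20 to 7.42 and from 7.00 through 7.20 to 7.30, with the same median. Medians were 7.25 and 7.28 in C3H/HeJ, 6.82 and 6.94 in CBA/J, 7.04 and 7.09 in DBA/2J, and 7.17 and 7.30 in B6C3F1/J. The difference was -0.41 without 129S1/SvImJ (adjusted p = 0.0306) and -0.14 without C57BL6/J, and over all settings its adjusted p ran from 0.0306 to 1.

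Trim12c, a tripartite motif protein, and Ecm2, an extracellular matrix protein, were likewise lower in CR mice of C57BL6/J more than in those of 129S1/SvImJ. Trim12c differed by -0.36 ± 0.09 (SE, adjusted p = 0.136), from a low signal of 5.32. It ran from 5.15 through 5.49 to 5.58 in control and from 4.47 through 4.99 to 5.50 in CR mice of C57BL6/J, and from 5.26 through 5.48 to 5.80 and from 5.16 through 5.39 to 5.46 in those of 129S1/SvImJ. In the single-allotment strains its CR effect ran from -0.13 in CBA/J to 0.32 in C3H/HeJ. Ecm2 differed by -0.30 ± 0.07 (SE, adjusted p = 0.221). Its control and CR mice ran from 6.05 through 6.32 to 6.41 and from 5.83 through 5.96 to 6.30 in C57BL6/J, and from 5.88 through 6.13 to 6.42 and from 5.75 through 6.10 to 6.26 in 129S1/SvImJ. All 4 single-allotment strains had positive Ecm2 effects, from 0.08 in B6C3F1/J to 0.17 in CBA/J. Without C57BL6/J, the differences of Trim12c and Ecm2 were -0.23 and -0.17.

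The remaining lower genes cover several cell functions. Tfrc, the transferrin receptor that takes up iron, differed by -0.23, and Itga1, a collagen-binding integrin, by -0.20. Cysltr2, a leukotriene receptor, differed by -0.29 from a low signal of 4.55. Vgf, a neuropeptide precursor that nerve growth factor induces, differed by -0.19, from -0.11 in the lowered-food and 0.08 in the single-allotment arm. Stat4, a signal transducer of interleukin 12, differed by -0.26 and fell in the lowered-food arm by 0.23 (adjusted p = 0.0263). Otud7a, a deubiquitinase, and 2210406O10Rik, an unnamed transcript, also fell in that arm, by 0.13 (adjusted p = 0.0263) and by 0.17 (adjusted p = 0.00825). Rp1, a microtubule protein known from photoreceptors, differed by -0.22 from a low signal of 4.90.

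The arms were also examined on their own. CR changed 104 genes (0.522%) in the lowered-food arm, 41 up and 63 down, and 75 genes (0.376%) in the single-allotment arm, 45 up and 30 down. The arms differ in precision, with a median SE of 0.0452 for 2 strains and 0.0317 for 4, so these counts are not a measure of response size. Without C57BL6/J, the lowered-food arm had 4 calls, and without CBA/J the single-allotment arm had 5. With strain as the unit, and against a threshold of 1.1-fold, each arm had 0 calls.

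The largest rises in the lowered-food arm were Per2 (0.41), Ifit3 (0.39), Ciart (0.31) and Tsc22d3 (0.28), where Ifit3 is an interferon-induced gene. The largest falls were Trim12c (-0.28), Scube1 (-0.25), a secreted and cell surface protein, Nwd2 (-0.24) and Stat4 (-0.23). In the single-allotment arm, Rpe65, the retinoid isomerase of the visual cycle, rose by 0.29, Ifit3b by 0.27, Txnip, a thioredoxin inhibitor that glucose induces, by 0.24, and Ifit3 by 0.23. Ifit3 and Ifit3b are close copies, and how their probes share signal was not examined. Nr1d1 (-0.32), 1700034I23Rik (-0.23), Mex3a (-0.16), an RNA-binding protein, and Upp2 (-0.14), a uridine phosphorylase, fell most. Of these, 1700034I23Rik had the opposite sign in the lowered-food arm, 0.09, with a difference of 0.32 and an adjusted p of 0.664.

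Between the arms, 15 genes were called in both, which was 14.4% of the lowered-food and 20% of the single-allotment calls, and all 15 had the same direction. Besides Cry1, Per2 and Nr1d1, they were Ifit3 and Hspa5, the ER chaperone BiP, Gja1, the astrocyte gap junction protein connexin 43, and Irs2, an insulin receptor substrate. They also held Map3k19, a kinase, Mthfd1l, a mitochondrial folate enzyme, Srsf3 and Snrpd2, splicing proteins, Sike1, Zfand2a, Cxcl14, a chemokine, and Sema6b, a semaphorin. Map3k19 had nearly the same CR effect in the arms, 0.21 and 0.21, with a 95% interval of the difference from -0.13 to 0.13.

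No mouse was shared between arms, so calls of one arm could be read in the other, though both arms took each gene's spread from the same fit. Over all 19938 genes, 1908 had an unadjusted p under 0.05 in the single-allotment arm and 2314 in the lowered-food arm. Of the 104 lowered-food calls, 89 had the same sign in the single-allotment arm and 59 also had an unadjusted p under 0.05 there. Of the 75 single-allotment calls, 70 had the same sign in the lowered-food arm and 49 an unadjusted p under 0.05. The median size of the single-allotment calls was 0.117 in their own arm and 0.0846 in the lowered-food arm. The lowered-food calls had a median size of 0.157 in their own arm and 0.0529 in the single-allotment arm. Sizes in an arm where a gene was called are raised by that choice, so the fall from one arm to the other is not a measured loss of response. Over all genes, 59.8% had the same sign in the arms (Pearson's r across genes 0.306, over genes that are not independent).

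**Figure D4:**
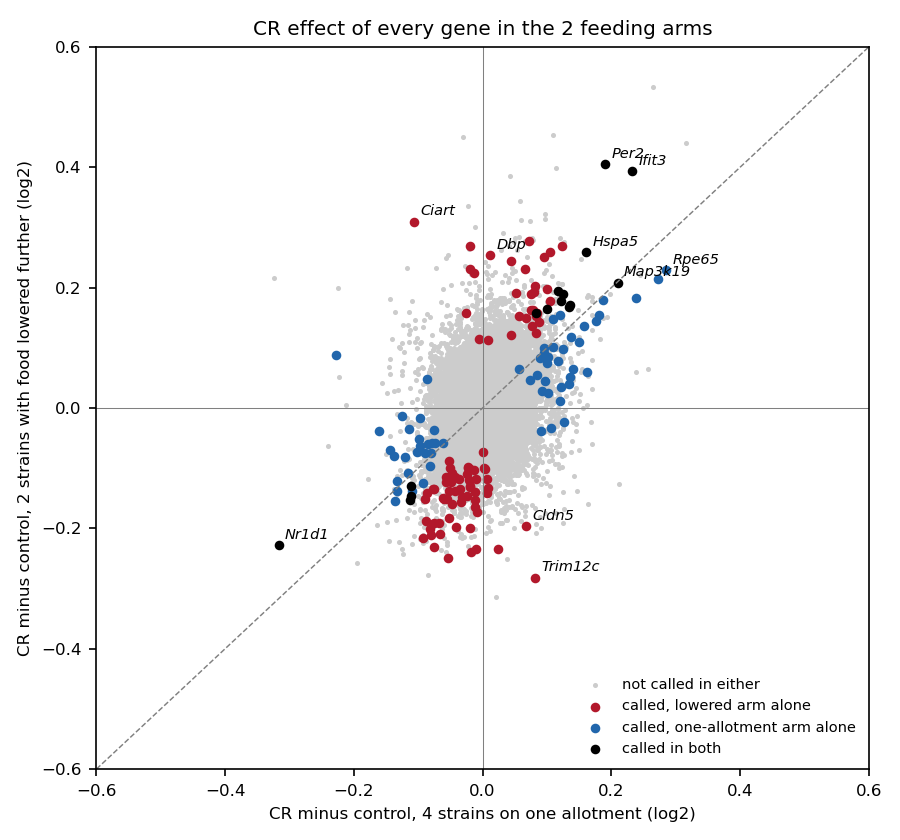
Mean CR effect of each of 19938 genes in the single-allotment arm (x axis) and the lowered-food arm (y axis), both CR minus control in log2 signal, with genes called in an arm coloured and equal effects on the dashed line. Per2, Ifit3, Hspa5 and Nr1d1 lie in the quadrants where the arms have the same sign, and Ciart, Cldn5 and Trim12c in those where they do not.

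Within single strains, limma called 19 genes (0.0953%), all higher, in 129S1/SvImJ and 72 (0.361%), 23 higher and 49 lower, in C57BL6/J. It called 54 (0.271%), 19 higher and 35 lower, in CBA/J. C3H/HeJ, DBA/2J and B6C3F1/J had 0 (0%) each. At an unadjusted p under 0.05, these 3 strains had 707, 1571 and 864 of 19938 genes. The study's methods used an unadjusted p under 0.01. There, limma gave 489 genes (2.45%) in 129S1/SvImJ, 1035 (5.19%) in C57BL6/J and 138 (0.692%) in C3H/HeJ. It gave 693 (3.48%) in CBA/J, 427 (2.14%) in DBA/2J and 185 (0.928%) in B6C3F1/J. With no CR response, a share equal to the threshold is expected, and C3H/HeJ and B6C3F1/J lay below it at both thresholds. In the same order of strains, the methods' t-test on linear signal gave 349, 1038, 116, 727, 338 and 132. These are not the study's own counts, which kept the control arrays left out here and chose probe sets by another rule. CBA/J, on a single allotment, therefore had more genes at an unadjusted p under 0.01 than 129S1/SvImJ, whose food was lowered. With CBA/J CR replicate 6 and DBA/2J control replicate 8 also left out, CBA/J and 129S1/SvImJ each had 17 genes under the adjusted threshold. The difference between strain counts was not tested.

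The largest changes within a strain were Resp18, a neuroendocrine protein (0.50), and Rab9b, a trafficking GTPase (0.37), in 129S1/SvImJ. In C57BL6/J, Per2 (0.49) and Sgk1 (0.46), a glucocorticoid-induced kinase, rose most and Trim12c (-0.42) and Arhgap42 (-0.36) fell most. In CBA/J, Cdh19, a cadherin (0.42), and Txnip (0.38) rose most and Nr1d1 (-0.47) and Ciart (-0.44) fell most. With both cerebellar arrays kept, Txnip and Nr1d1 were among the 10 genes called in CBA/J, and Cdh19 and Ciart were not. Ciart is thus among the genes that fell in CBA/J and among those that rose in the lowered-food arm.

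The lowered-food strains did not resemble each other across genes. Pearson's r between the CR effects of 129S1/SvImJ and C57BL6/J was -0.00632 over 19938 genes, and 47.3% of genes had the same sign, placing this pair at rank 12 of the 15 pairs of strains. Across the arms, r ran from -0.011 to 0.309 in 8 pairs with a median of 0.118, and within the single-allotment arm from -0.061 to 0.167 in 6 pairs with a median of -0.00149. The pair most alike was 129S1/SvImJ and DBA/2J, with r = 0.309. Genes are not independent, and each r also carries the error of both strains' differences.

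Genes called in 1 strain were read in the others. All 19 genes called in 129S1/SvImJ had the same sign in DBA/2J, with a median of 0.118 there, while 14 of 19 did in C57BL6/J, with a median of 0.0329. Of the 72 genes called in C57BL6/J, 49 had the same sign in 129S1/SvImJ, with a median of 0.0358, against 45 to 51 in the single-allotment strains. The 19 calls had the same sign for 12 to 19 genes in the single-allotment strains, so the other lowered-food strain lay inside the range of those strains in each case. Over all genes, 61% had the same sign in 129S1/SvImJ and DBA/2J, and 47.3% in 129S1/SvImJ and C57BL6/J. With the single-allotment strains, 129S1/SvImJ shared the sign for 49.3% to 61% of all genes, and C57BL6/J for 48.5% to 56.8%. Of the 54 genes called in CBA/J, 28 had the same sign in 129S1/SvImJ and 30 in C57BL6/J. In C3H/HeJ, DBA/2J and B6C3F1/J, 33 to 42 of them did. CBA/J shared the sign with the other strains for 49.4% to 56.6% of all genes. These shares were not tested.

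Glucocorticoid-induced genes showed a strain pattern of this kind. Their difference between arms was positive for 15 of 19 genes, against 49.4% of all genes, with a median of 0.0679. None passed the threshold. For 0 of the 19 did both lowered-food strains lie above all others, against 4.79% of all genes, and for 0 below, against 5.56%. Tsc22d3, which encodes the glucocorticoid-induced leucine zipper, differed by 0.21 (adjusted p = 0.66), and it rose in the lowered-food arm by 0.28 (adjusted p = 0.00135). Its CR effect was 0.25 in 129S1/SvImJ and 0.30 in C57BL6/J, but also 0.31 in DBA/2J, against -0.05 to 0.05 in the other 3 strains. Sgk1 differed by 0.29, Per1, a Period gene that is on the clock list too, by 0.19, and Map3k6, a stress kinase, by 0.13. The list's median CR effect was 0.199 in C57BL6/J and 0.11 in DBA/2J, and it was -0.0152 in 129S1/SvImJ. Without C57BL6/J the median difference between arms was -0.0122, with 9 of 19 positive.

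Genes of ER chaperones and folding enzymes, which rise when unfolded protein accumulates, had positive medians in all 6 strains, from 0.0386 in C3H/HeJ to 0.136 in 129S1/SvImJ. The median was 0.0922 in the lowered-food and 0.0698 in the single-allotment arm, and the median difference was 0.00732. In the lowered-food arm 5 of 20 rose (Hspa5, Creld2, Sdf2l1, Xbp1 and Pdia4), with 0.522% of all genes called there, and in the single-allotment arm Hspa5 rose, by 0.16 (adjusted p = 0.0364). Herpud1, which acts in the disposal of unfolded protein, had the smallest p of the list in the difference, at 0.16 (adjusted p = 0.743). For 6 of the 20 genes, Hspa5 among them, both lowered-food strains lay above all others, against 4.79% of all genes. Hspa5 is the gene whose promoter, shown above, holds the ER stress element.

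Subunits of excitatory and inhibitory receptors leaned the other way. Of 20, 4 had a positive difference, against 49.4% of all genes, and the median was -0.0464. For 5 of the 20, both lowered-food strains lay below all others, against 5.56% of all genes. With both cerebellar arrays kept, the median was -0.00552. Grin2b (-0.10), Grin2c (-0.10) and Grin2a (-0.14), subunits of the NMDA receptor, and Gria3 (-0.08), of the AMPA receptor, had the smallest p of the list, and 0 of them passed the threshold. Grin2c fell in the lowered-food arm by 0.19 (adjusted p = 0.00167), and it was the only receptor subunit of the 20 called in either arm.

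Activity-induced immediate early genes had a median difference of 0.063, with 14 of 22 positive, against 49.4% of all genes, and wide intervals. Npas4, a transcription factor that neuronal activity induces, differed by 0.42 with a 95% interval of -0.01 to 0.86, Junb by 0.23, and Fos by 0.23. The list's median CR effect was 0.198 in C57BL6/J but -0.0539 in 129S1/SvImJ, so that the lowered-food strains had opposite signs, and it was -0.267 in CBA/J. Without C57BL6/J, the median difference between arms was -0.0574. Nptx2, a secreted synaptic protein, went the other way, at -0.16.

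**Figure D5:**
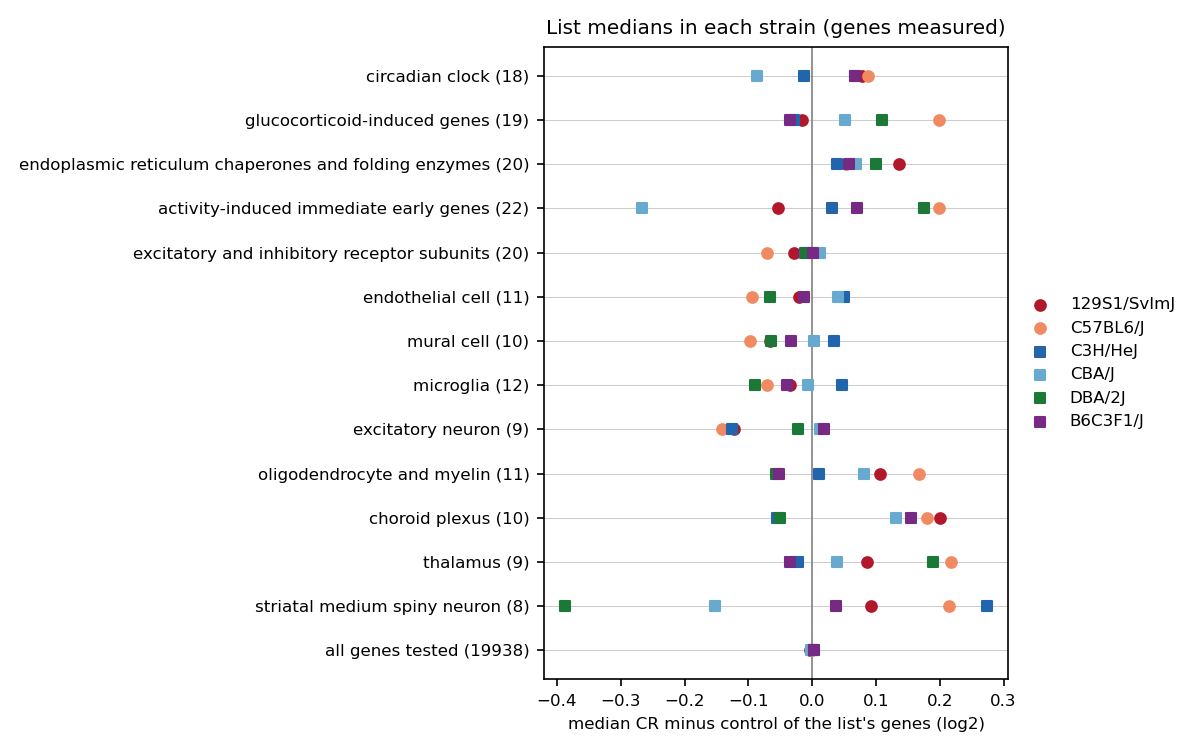
Median CR effect (CR minus control, log2 signal, x axis) over the genes of 13 lists and over all genes tested in each of 6 strains, with the number of genes measured in parentheses, circles for the lowered-food and squares for the single-allotment strains. ER chaperones lie above 0 in all 6 strains, while the striatal list spreads from -0.387 in DBA/2J to 0.274 in C3H/HeJ.

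The other 14 pathway lists had median differences between -0.0244 and 0.0453. The medians were 0.0264 for insulin and FoxO signalling (21 genes), 0.042 for cytosolic heat shock genes (14), 0.00659 for the ATF4 and amino acid response (21), 0.00288 for sterol synthesis and uptake (20) and 0.0039 for ketone use and fatty acid oxidation (19). They were 0.0233 for glycolysis (17), 0.013 for the respiratory chain (23), -0.0086 for sirtuins, Nampt and PGC-1alpha (14), -0.000735 for autophagy and lysosome (20) and 0.022 for ribosomal proteins (23). Neuropeptide precursors had a median of -0.0124 (19 genes), receptors for feeding signals 0.0453 (16), interferon-induced genes -0.0244 (20) and antioxidant genes 0.0336 (19). In these 14 lists, 0 genes passed the threshold in the difference. Single genes with the smallest p were Klf15 (0.13), a transcription factor of fasting metabolism, Hspa1a (0.15), the inducible HSP70, Sesn2 (-0.11), a stress sensor of the amino acid response, Slc16a1 (-0.18), the monocarboxylate transporter that carries ketone bodies, and Hcrtr1 (-0.12), an orexin receptor. Slc16a1 fell in the lowered-food arm by 0.20 (adjusted p = 0.0445).

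Several lists of markers of neighbouring regions and of other cells leaned to 1 side in the difference between arms. Each median below was smaller in size than its list's SD between mice, such as 0.663 for the striatal and 0.395 for the choroid plexus list. That SD is the spread of single mice and not the error of a difference between group means, so it is no test of these leanings. Strains did not sort by arm in the striatal list. Its median CR effect was 0.0916 in 129S1/SvImJ and 0.214 in C57BL6/J, and ran from -0.387 in DBA/2J to 0.274 in C3H/HeJ among single-allotment strains. All 8 striatal markers had a positive difference (median 0.204), as did all 10 of the choroid plexus (0.132), 10 of 11 of myelin (0.116) and 8 of 9 of the thalamus (0.109). Of 9 excitatory neuron markers, 1 was positive (median -0.0937), as were 1 of 10 mural cell (-0.0644) and 2 of 12 microglial markers (-0.0424). The cerebellar median was 0.0102, with 7 of 14 positive. Over all genes, 49.4% had a positive difference. The mean striatal level ran from 8.00 to 10.4 in control and from 8.07 to 10.2 in CR mice of the lowered-food arm, and from 8.07 to 10.5 and from 8.13 to 10.6 in the single-allotment arm. The mean choroid plexus level ran from 6.51 to 7.69 and from 6.68 to 8.13 in the lowered-food arm, and from 6.57 to 8.25 and from 6.43 to 7.77 in the single-allotment arm. These striatal and choroid plexus ranges overlap almost entirely. The mean cerebellar level ran from 7.05 to 7.39 in control and from 7.02 to 7.43 in CR mice of the lowered-food arm. In the single-allotment arm it reached further up, from 7.08 to 8.67 and from 7.01 to 8.39.

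With the striatal mean as a covariate, 0 genes were called in the difference, and with the striatal, thalamic, choroid plexus, myelin and excitatory neuron means together, 4 were called, Ciart, Dbp, Tef and Ecm2. Under those 5 covariates, the differences were 0.47 for Ciart, 0.24 for Dbp, 0.19 for Tef and -0.25 for Cldn5, against 0.42, 0.24, 0.18 and -0.26 without them. Of the 104 genes called in the lowered-food arm, 63 were also called with the 5 covariates and 41 were not, while all 75 genes called in the single-allotment arm were also called with them.

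The study's own list of cortex genes held 28 genes, of which 26 were measured. It was chosen on these samples, so it is not independent evidence. Of the 26, 12 had a positive difference, against 49.4% of all genes, the median was -0.00426, and 0 passed the threshold. In the lowered-food arm 5 rose and 2 fell, where 0.522% of all genes were called, and in the single-allotment arm 7 rose and 2 fell, where 0.376% were. The median difference was -0.0625 without 129S1/SvImJ and 0.0476 without C57BL6/J. Cldn5 (-0.26), Ciart (0.42), Cdyl (-0.13), a chromodomain protein, and Gja1 (0.08) had the smallest p in the difference between arms.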

How the data were processed

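RNA of the cerebral cortex was measured on Mouse Gene 1.0 ST arrays (Affymetrix), 1 mouse per array. The authors deposited log2 values from the RMA-Sketch method of Expression Console (Affymetrix), whose version the sources used here do not give. Since RMA forces arrays onto one shared distribution, a change of all genes together is removed. The deposited table covered 35556 probe sets. Probe sets with exactly 1 symbol (21789) were kept, and the probe set of highest mean over 112 arrays stood for its gene, leaving 19938 genes with no filter on low signal. Such arrays have no counts, and their number limits the precision. Sequence differences between strains can alter a probe set's signal.

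A mean for each of 12 strain and diet groups was fitted to the log2 values of 94 mice with limma 3.58.1 in R 4.3.3 (two-sided moderated tests from eBayes, with 82 degrees of freedom from the residuals and 5.02 from the prior). Contrasts were the CR effect within each strain, its mean in each arm, and the difference between arms. Calls needed an adjusted p under 0.05, by the Benjamini-Hochberg method across the whole table. Mice are separate animals, and p-values measure their spread. The fit was tested on simulated data. Tables were read with data.table (version 1.17.8), and matplotlib 3.10.9 (Python 3.11.15, numpy 2.4.6) made the plots.

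Genes were named by rule: the 12 of smallest p in each direction among uncalled genes whose arms did not overlap (no gene was called), the 4 largest called each way in each arm, the 2 largest called each way in each strain, and up to 4 of smallest p in a list. Arntl, Sorcs3 and members of counts of 7 or fewer were named after their values were seen, and the D-box was added then. The feeding arms, the members and the 35 gene lists (541 of 589 genes measured) were chosen with earlier results of these data known. Lists got counts and medians and no test. Balbc/J and 2 cerebellar arrays were left out of the fit. The closing part gives 24 alternative settings.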

Additional observations from a re-analysis of the deposited data

Results flagged for a closer look

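The 4 genes of smallest p named in each direction, 8 in all, were searched for a mouse far from the rest of its group. Of 96 gene and group combinations, 6 held one, and chance gives about 1 in 20. Fbxo36 was 8.47 in C3H/HeJ control replicate 8 (nearest mouse 8.31). Cldn5 was 9.26 in B6C3F1/J control replicate 7 (nearest 9.47), and C3ar1 was 6.51 in CBA/J control replicate 6 (nearest 6.78). Trim12c was 4.98 in CBA/J CR replicate 7 (nearest 5.16) and 4.72 in B6C3F1/J control replicate 4 (nearest 5.16). Ecm2 was 6.30 in C57BL6/J CR replicate 8 (nearest 6.04).

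Both arrays left out of the fit carried a signal outside cortex. The median of 14 cerebellar genes stood 4.06 log2 units above the rest of the group in C57BL6/J control replicate 6 and 4.08 in B6C3F1/J control replicate 8. In the same arrays, the median of 9 excitatory neuron genes stood at -0.71 and -0.592 relative to their groups.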

How the results depend on the processing

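The 24 named differences kept their direction under every setting run. Since non-overlap was part of their choice, leaving out a strain or taking strain as the unit could not reverse them. Of 350 recomputed medians of the 35 lists, 55 in 21 lists took the opposite sign. Among them were the glucocorticoid-induced (-0.0122), immediate early (-0.0574) and blood (-0.0635) lists without C57BL6/J. Of the 350, 2 moved by over 1 SD between mice. The difference between arms had 7 calls with Balbc/J counted as a single-allotment strain, 2 with array weights, 2 (Ciart and Tm6sf2) with the replicate block, 4 with 5 list means as covariates (chosen after seeing the data, like the striatal covariate), 0 in the other settings that kept every strain, and 0 to 5 when each strain was left out in turn: 5 without DBA/2J, 2 without 129S1/SvImJ and 0 otherwise. The lowered-food arm (104 calls) had 24 with both cerebellar arrays kept, 157 with a further 2 arrays left out, 0 with strain as the unit, 343 with array weights, 177 after quantile normalization, 220 among genes above the median, 188 over all probe sets, 0 against a 1.1-fold change, 181 with the striatal covariate, 166 with 5 covariates, and 4 to 127 without each strain. The single-allotment arm (75) had 18 with the cerebellar arrays kept, 212 with Balbc/J added, 0 with strain as the unit, 153 with weights, 0 against 1.1-fold, 119 with the striatal and 196 with 5 covariates, and 5 to 85 without each strain. Within 129S1/SvImJ (19) there were 1 with the cerebellar arrays kept, 11 with Balbc/J in the fit in either role, 2 after centring, 43 among genes above the median, 4 over probe sets, 29 with the block, 3 with each array's relative log expression spread as covariate, 12 with the cerebellar and 33 with 5 covariates, and 4 to 20 without each strain. Within C57BL6/J (72) there were 16 with the cerebellar arrays kept, 471 with weights, 16 after quantile normalization, 153 among genes above the median, 199 with the striatal and 310 with 5 covariates, and 31 to 97 without each strain. Within CBA/J (54) there were 10 with the cerebellar arrays kept, 17 with 2 further arrays out, 148 with weights, 105 after quantile normalization, 108 among genes above the median, 129 with the block, 35 with the cerebellar, 109 with the striatal and 275 with 5 covariates, and 30 to 70 without each strain. C3H/HeJ had 1 with weights, 1 with the block and 0 to 1 without each strain, and DBA/2J had 1 with 2 further arrays out, 5 with weights, 7 among genes above the median and 1 with the block. The cause of these moves was not tested. No label says that a replicate number marks a shared litter or day, and 29 of 46 same-numbered pairs correlated over 0.1 (lowest -0.359), so the numbers were not used to pair mice. As a hint from the data, strain medians were 0.116 to 0.196 for same-numbered and -0.0271 to 0.0217 for other pairs, and 13 mice correlated best with their own number.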

Other observations

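Balbc/J mice, 8 on each diet, were in neither arm and took no part in choosing the genes described above. Among the 12 genes with higher values in the lowered-food arm, the CR effect in Balbc/J was below 0 for 10, with a median of -0.0542 log2 units, and it lay below both lowered-food strains for 12 of 12. Among the 12 genes with lower values, it was above 0 for 11, with a median of 0.056, and lay above both lowered-food strains for 11. Trim12c, at -0.15, was between them. Of the 24 genes, 6 had an unadjusted p under 0.05 in Balbc/J from a limma fit that held all 7 strains. Cldn5 was 0.27 ± 0.07 (SE), Cysltr2 0.26 ± 0.08, Tfrc 0.17 ± 0.07, Jmjd6 -0.15 ± 0.04, P4ha2 -0.15 ± 0.05 and Bhlhe41 -0.18 ± 0.08. Ciart was -0.19 ± 0.11 and Dbp -0.07 ± 0.07. Lying outside the lowered-food strains follows in part from how the genes were picked, since their effects in those strains are raised by that choice. The share of all genes with such Balbc/J values was not counted, so these counts are a description and no support for a difference. That strain received more food on both diets, so it is not a replicate of the single-allotment arm. Within it, 1 gene was called.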
